A study of Mus musculus with 19 samples.

Results

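Citrate cycle enzyme genes were followed through kidney RNA of mice with and without ischemia-reperfusion injury. The 9 genes were Cs, Idh2, Idh3a, Idh3g, Ogdh, Suclg1, Suclg2, Fh1 and Mdh2. They were taken by name, with earlier results of these data known. Each matched 1 of the 19287 entries of the deposited expression table through its mouse gene ID. All 9 passed the filter on low values, and none was at 0 in any library.

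The citrate cycle runs in the mitochondrial matrix, where it oxidises acetyl-CoA and hands the electrons to the respiratory chain. Tubule cells of the kidney, above all those of the proximal tubule, are packed with mitochondria, because reclaiming salt and nutrients from the filtrate takes much ATP. The enzymes of the cycle are encoded by nuclear genes, and their products act together, some as subunits of 1 complex and some as isoforms with different cofactors or in different compartments.

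All kidneys were from male mice of the C57BL/6 inbred strain and fall into 4 groups by the sample titles. IRLacz (4 libraries) and IRLac (5 libraries) were injured kidneys of mice that had received a Lactobacillus strain by oral gavage for 4 weeks before the injury. IR (5 libraries) held injured kidneys and sham (5 libraries) the kidneys of the sham group, with no gavage given for either in the labels. In ischemia-reperfusion the renal blood supply is cut off and later let back in, and injured kidneys were taken on day 5. The study's abbreviation for Lactobacillus casei Zhang matches IRLacz, which leaves Lactobacillus acidophilus for IRLac, an assignment made by elimination. No group of gavaged but uninjured mice was analysed here, and the labels do not say that each library is 1 mouse, so p-values measure the spread between libraries. Levels are in FPKM, fragment counts scaled by gene length and depth, so levels of different genes can be compared.

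Upstream sequences were looked at because most of the 9 genes moved together. RefSeq's promoter table, on GRCm38.p6, held a window for 8 of the 9 genes; Idh3a had none. In the 250 bases upstream of a start, CCAAT was found in 5 of these 8 genes (Cs, Idh2, Ogdh, Suclg2 and Fh1) and in 40.1% of 10534 tested genes with a window. GGGCGG was found in 6 of 8 (Cs, Idh2, Ogdh, Suclg2, Fh1 and Mdh2) and in 62.5% of those tested genes. TGACGTCA, the full CRE, was in Ogdh and Mdh2 and in 2.93% of tested genes. GCGCATGC, a form of the NRF1 motif, was in Ogdh (4.71% of tested genes), and AAGATGGC, a form of the YY1 motif, in Idh3g (2.24%). Neither TNAAGGTCA (ERR, 0.9%) nor CCGGAAGT (ETS, 6.41%) was in any of the 8 genes. Both strands were searched, a gene with several starts counted once if any window matched, and Suclg1 held none of the 7 motifs. Over all 27025 genes with a window the shares were 37.5% for CCAAT, 35.4% for GGGCGG, 1.77% for TGACGTCA, 2.56% for GCGCATGC, 1.83% for AAGATGGC, 1.3% for TNAAGGTCA and 3.23% for CCGGAAGT. A match describes the letters of the window only. The windows below are those of Cs, which opens the cycle, Ogdh, at a middle step, and Fh1, at a later step. They are shown in full, and no annotated exon lies in them. The Suclg2 window, with 6 matches, is also free of annotated exons and is not shown. Capitals mark, on either strand, the motifs CCAAT (NFY), GGGCGG (SP1) and TGACGTCA (CRE). For Ogdh, which has several starts, the most upstream one is shown.
Cs, chr10:128337477-128337726, plus strand: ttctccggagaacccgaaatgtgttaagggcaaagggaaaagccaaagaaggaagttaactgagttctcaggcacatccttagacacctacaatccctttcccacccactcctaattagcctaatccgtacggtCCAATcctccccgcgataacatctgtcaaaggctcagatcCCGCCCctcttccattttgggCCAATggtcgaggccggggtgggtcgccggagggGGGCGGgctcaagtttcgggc
Ogdh, chr11:6291347-6291596, plus strand: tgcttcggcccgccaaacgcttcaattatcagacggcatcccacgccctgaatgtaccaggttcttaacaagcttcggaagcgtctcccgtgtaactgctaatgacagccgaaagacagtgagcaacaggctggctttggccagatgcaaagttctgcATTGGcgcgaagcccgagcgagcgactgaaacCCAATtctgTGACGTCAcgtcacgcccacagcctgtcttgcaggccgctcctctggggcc
Fh1, chr1:175625636-175625885, minus strand: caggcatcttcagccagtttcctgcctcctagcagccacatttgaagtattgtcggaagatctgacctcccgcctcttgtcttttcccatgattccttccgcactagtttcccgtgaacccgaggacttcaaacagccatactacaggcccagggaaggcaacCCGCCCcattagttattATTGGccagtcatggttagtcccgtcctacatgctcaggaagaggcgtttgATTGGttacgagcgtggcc

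Differences between groups were tested with limma on log2(FPKM + 1) over 13594 entries, with p-values adjusted over all of them by the Benjamini-Hochberg method and a threshold of 0.05. In IR against sham, 7747 entries were called higher and 2529 lower, and the log2 difference had a median of 0.29 across the tested entries. After median-ratio scaling, which removes that shift, 4764 were called higher and 4794 lower, and after quantile scaling 4222 and 5294. The injury marker Havcr1, kidney injury molecule 1, averaged 488 ± 53.3 FPKM in IR, against 1.22 ± 0.284 FPKM in sham (SD, n = 5 each). Read depth is unknown, since the FPKM sums of 545590 to 584798 do not measure it. Libraries of a group correlated at 0.9604 to 0.9929. IRLacz replicate 1 and IRLac replicate 3 lay closer to sham than the rest of their groups in the 9 genes and in tubule markers, and values of the 9 genes without them are given beside the comparisons with IR. Each of these 2 libraries held the highest value of its group in 9 of 9 genes. Leaving it out can therefore only lower the group's level of those genes, and the direction of that change is no test.

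The comparison of IR with sham asked how injury changed the cycle by day 5. All 9 genes were lower in IR, with no overlap between the 5 IR and 5 sham libraries for any of them. Across all tested entries, 18.6% were called lower, and 10481 of 13594 were at an unadjusted limma p of at most 0.05. How many of all entries had no overlap between the groups was not counted. The lack of overlap, here and gene by gene below, is thus not shown to be particular to the 9 genes. The falls were not of 1 size: Idh2, the mitochondrial isocitrate dehydrogenase that makes NADPH, was at 50.4% of its sham mean, whereas Cs and Idh3a stayed above 80%. The median log2 difference over the 9 genes was -0.73, against 0.29 over all entries. After median-ratio scaling all 9 were still called lower, with log2 differences from -1.33 for Idh2 to -0.59 for Cs and Idh3a and a median of -1.07. With that scaling 4794 of the 13594 tested entries were called lower. Fewer cells of a type and less RNA per cell cannot be told apart in RNA from whole kidney.

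Citrate synthase, encoded by Cs, joins acetyl-CoA to oxaloacetate and opens the cycle. Cs was at 86.0, 91.7, 85.0, 96.1 and 94.3 FPKM in IR, and at 105, 105, 115, 102 and 114 FPKM in sham. No IR library reached the lowest sham library. Means were 90.6 ± 4.94 FPKM in IR, against 108.1 ± 6.25 FPKM in sham (SD, n = 5 each). The log2 difference was -0.25, with an SE of 0.07 and a limma adjusted p of 0.0033. Cs and Idh3a had the smallest falls of the 9 genes.

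Isocitrate is oxidised in mitochondria by the NADP-dependent enzyme of Idh2 and by the NAD-dependent enzyme built from Idh3a, Idh3b and Idh3g. Idh2 was at 163, 168, 161, 193 and 215 FPKM in IR, and at 353, 347, 395, 335 and 352 FPKM in sham. Every IR library was far below every sham library. Idh2 averaged 179.8 ± 23.6 FPKM in IR, against 356.6 ± 22.8 FPKM in sham (SD, n = 5 each). The log2 difference was -0.99, with an SE of 0.14 and a limma adjusted p of 4.3e-06. It was the largest fall of the 9 genes.

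Idh3a encodes the catalytic subunit of the NAD-dependent enzyme. Its values were 50.34, 59.65, 52.03, 56.88 and 58.13 FPKM in IR, and 59.69, 70.19, 66.57, 65.45 and 69.10 FPKM in sham. The groups only just failed to meet, since IR replicate 2 and sham replicate 1 were nearly equal. The log2 difference was -0.25 (SE 0.11, limma adjusted p = 0.038), with means of 55.4 ± 4.02 FPKM in IR, against 66.2 ± 4.11 FPKM in sham (SD, n = 5 each). This call was lost in 9 of 24 alternative settings, among them leaving out IR replicate 1, IR replicate 3 or any of sham replicates 2, 3, 4 and 5, with a highest adjusted p of 0.089.

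Idh3g encodes a regulatory subunit of the same enzyme. Idh3g was at 133, 136, 135, 152 and 151 FPKM in IR, and at 235, 230.2, 233, 236 and 241 FPKM in sham. The gap between the groups was many times the spread within sham. Its mean was 141.4 ± 9.14 FPKM in IR, against 235.1 ± 4.15 FPKM in sham (SD, n = 5 each). The log2 difference was -0.73, with an SE of 0.09 and a limma adjusted p of 1.1e-06. Subunits of 1 enzyme thus differed in how far their RNA fell, which is tested below as a ratio.

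Ogdh encodes the first component of the 2-oxoglutarate dehydrogenase complex, which releases carbon dioxide and makes succinyl-CoA. Its values were 105, 112, 111, 127 and 135 FPKM in IR, and 195, 192, 213, 187 and 208 FPKM in sham. The highest IR library was well below the lowest sham library. Ogdh averaged 118.0 ± 12.4 FPKM in IR, against 198.9 ± 10.8 FPKM in sham (SD, n = 5 each). Its log2 difference was -0.75 (SE 0.11, limma adjusted p = 5e-06).

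Succinyl-CoA ligase turns succinyl-CoA into succinate and charges a nucleotide. Suclg1 encodes its shared alpha subunit and Suclg2 the GTP-specific beta subunit, while Sucla2 encodes the ATP-specific beta subunit. Suclg1 was at 127, 135, 131, 154 and 159 FPKM in IR, and at 269.9, 262, 264, 262 and 285 FPKM in sham. Suclg2 was at 64.2, 60.6, 71.6, 80.7 and 75.3 FPKM in IR, and at 120.4, 113, 107, 108 and 119.7 FPKM in sham. Neither gene's groups overlapped. Suclg1 fell further, with the log2 difference at -0.93 (SE 0.12, limma adjusted p = 1.4e-06), with means of 141.0 ± 14.4 FPKM in IR, against 268.4 ± 9.69 FPKM in sham (SD, n = 5 each). For Suclg2 the log2 difference was -0.69 (SE 0.09, limma adjusted p = 2.7e-06), with means of 70.5 ± 8.16 FPKM in IR, against 113.6 ± 6.26 FPKM in sham (SD, n = 5 each).

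Fumarate hydratase, encoded by Fh1, adds water to fumarate, and malate dehydrogenase 2, encoded by Mdh2, closes the cycle by making oxaloacetate. Fh1 was at 78.3, 89.0, 82.2, 90.7 and 94.8 FPKM in IR, and at 142, 159, 133, 152 and 150.0 FPKM in sham. Mdh2 was at 305, 314, 298, 315 and 328 FPKM in IR, and at 425, 426, 463, 425 and 441 FPKM in sham. Mdh2 varied little among IR libraries, and both genes were lower in every IR library than in any sham library. The log2 difference was -0.75 for Fh1 (SE 0.10, limma adjusted p = 2.4e-06), with means of 87.0 ± 6.64 FPKM in IR, against 147.3 ± 9.94 FPKM in sham (SD, n = 5 each). It was -0.48 for Mdh2 (SE 0.10, limma adjusted p = 0.00026), with means of 312 ± 11.2 FPKM in IR, against 436 ± 16.5 FPKM in sham (SD, n = 5 each).

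**Figure D1:**
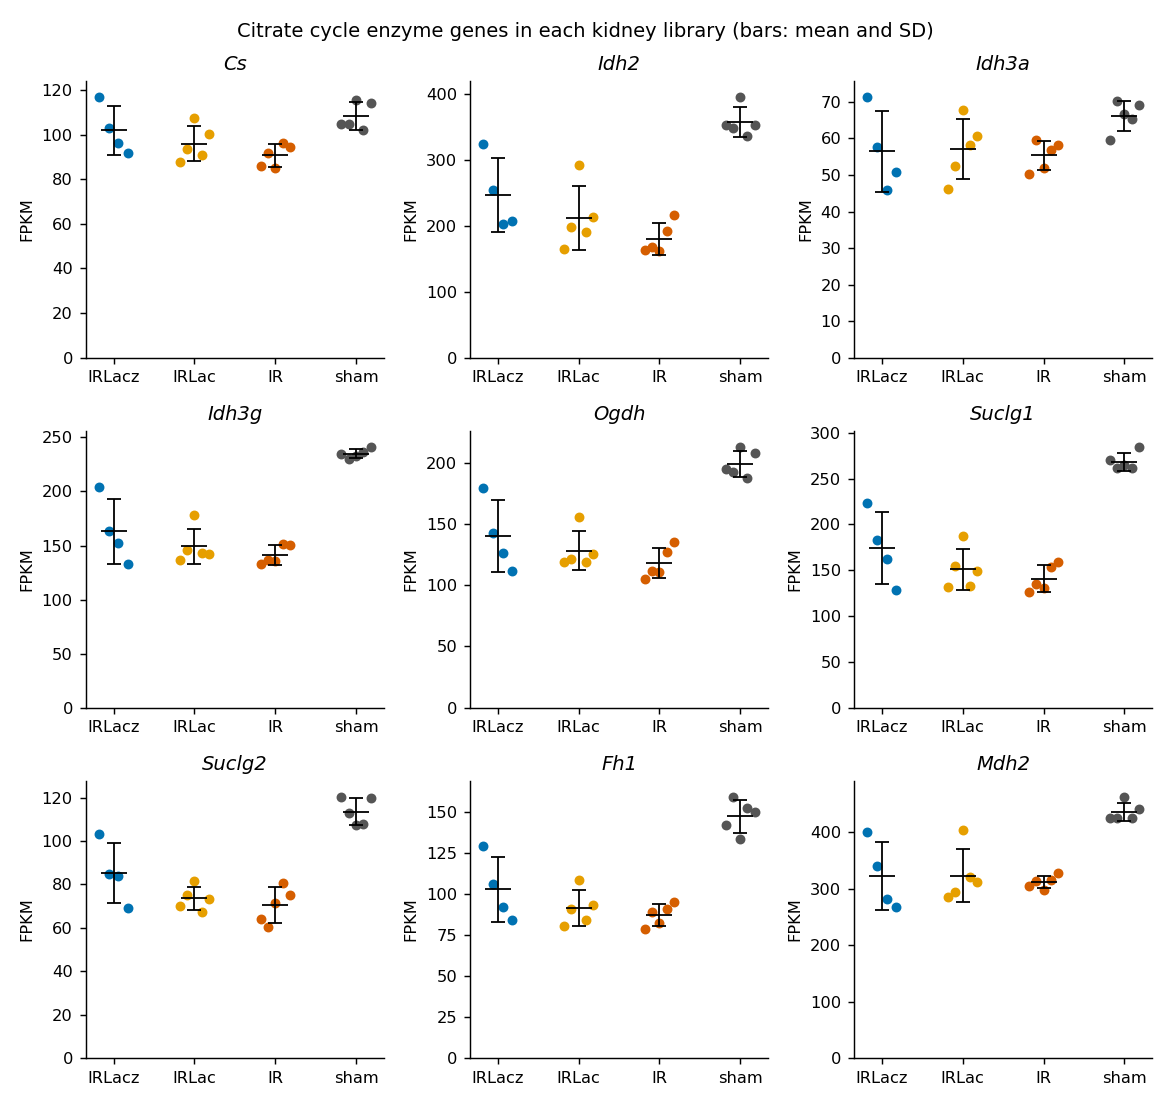
FPKM of each of the 9 genes (vertical axes, from 0) in every library, grouped from left to right as IRLacz, IRLac, IR and sham; dots are libraries and bars the mean and SD. The IR and sham dots do not overlap in any panel, and 1 high dot stands above the rest in most IRLacz and IRLac panels.

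The unequal falls changed the order of the levels. In IR, Mdh2 stood highest, followed by Idh2, then Idh3g and Suclg1 at nearly the same mean, Ogdh, Cs, Fh1, Suclg2 and Idh3a. In sham the order was Mdh2, Idh2, Suclg1, Idh3g, Ogdh, Fh1, Suclg2, Cs and Idh3a, and only Suclg2 and Cs overlapped as neighbours. In IR the ranges of Idh3g, Suclg1 and Ogdh overlapped, as did those of Cs with Fh1 and of Fh1 with Suclg2. Cs thus stood above Fh1 and Suclg2 by its mean in IR and below both in sham.

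The rest of the cycle's mitochondrial subunits moved the same way. All 9 of them were called lower in IR than in sham, with a median log2 difference of -0.70. Sdha, which encodes the catalytic subunit of succinate dehydrogenase, averaged 174.5 ± 20.4 FPKM in IR, against 321.8 ± 12.1 FPKM in sham (SD, n = 5 each), and its log2 difference was -0.89 (limma adjusted p = 1.3e-06). The log2 differences of Sdhb, Sdhc and Sdhd, which encode the other subunits of that enzyme, were -0.88, -0.78 and -0.55. Idh3b, Dld, Sucla2 and Dlst lay between -0.70 and -0.66. Against these 9, Cs, Idh3a and Mdh2 had smaller falls than any, and Idh2 had a larger one than any.

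Enzymes outside the cycle proper were mixed. Of 7 tested isoforms in the cytosol or in side reactions, 4 were called lower in IR and 0 higher. Mdh1, the cytosolic malate dehydrogenase, averaged 323.1 ± 30.4 FPKM in IR, against 647.2 ± 23.7 FPKM in sham (SD, n = 5 each), a log2 difference of -1.004 (limma adjusted p = 7.2e-06). Me1, the cytosolic malic enzyme, differed by -1.34, Aco1, the cytosolic aconitase, by -0.75 and Dhtkd1, which acts on 2-oxoadipate in lysine breakdown, by -1.42 on the log2 scale. Idh1, the cytosolic and peroxisomal NADP-dependent isocitrate dehydrogenase, averaged 159.7 ± 20.9 FPKM in IR, against 160.7 ± 22.3 FPKM in sham (limma adjusted p = 0.95), but was called lower after median-ratio scaling (log2 difference -0.35, adjusted p = 0.023) and was at 0.14 after quantile scaling (adjusted p = 0.25). Acly, which splits citrate in the cytosol, missed the threshold (log2 difference -0.11, limma adjusted p = 0.12) and was called lower after median-ratio and quantile scaling. Ogdhl, a relative of Ogdh, had a log2 difference of 0.33 (limma adjusted p = 0.053), which became -0.21 after quantile scaling. Acod1, which makes itaconate in macrophages, was at 0.26 to 0.49 FPKM in IR and listed at 0 in all sham libraries, too low to be tested.

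**Figure D2:**
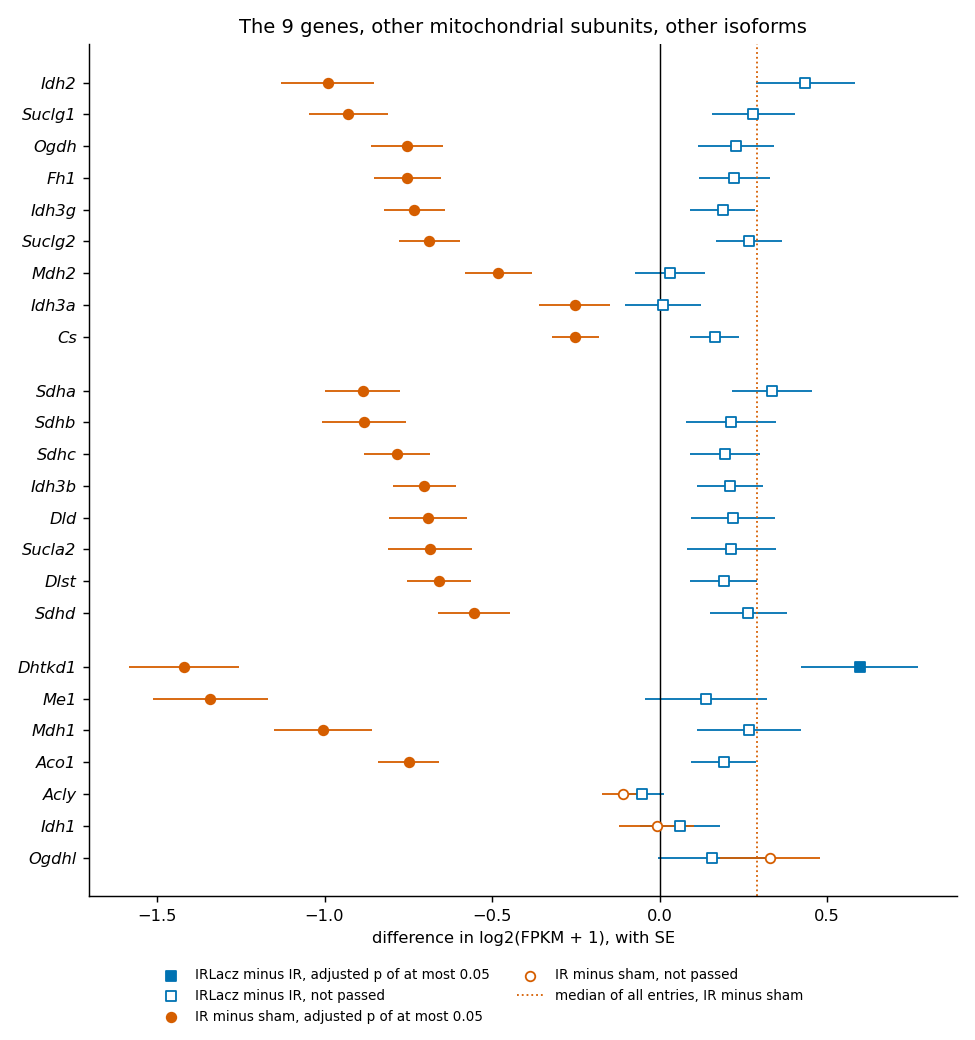
Differences in log2(FPKM + 1) with their SE (horizontal axis) for the 9 genes, the other mitochondrial subunits and the other isoforms, in 3 blocks from top to bottom. Squares are IRLacz minus IR and circles IR minus sham, filled where the adjusted p was at most 0.05; circles of all mitochondrial genes shown, in the upper 2 blocks, are filled and left of 0, and their squares are open and right of 0. The dotted line is the median of all entries for IR minus sham.

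Ratios of FPKM values within a library do not change when all values of that library are multiplied by 1 factor. Tests of 8 ratios of subunits and isoforms in 3 comparisons used differences in log2(FPKM + 1), for which this holds only nearly. The log2 differences given are on that scale, and the ratios printed are of FPKM values without the added 1. The 24 two-sided exact permutation tests were adjusted together, and the smallest p they allow is 0.00794, both for 5 against 5 and for 4 against 5 libraries. Between IR and sham 6 ratios differed, each at that smallest p (adjusted p = 0.0317). Idh2/Idh3a was 3.25 ± 0.333 in IR and 5.40 ± 0.48 in sham (SD, n = 5 each), a log2 difference of -0.74. Idh2/Idh1 was 1.13 ± 0.125 in IR and 2.27 ± 0.465 in sham, a log2 difference of -0.98. The mitochondrial NADP-linked enzyme's RNA thus fell relative to both the NAD-linked catalytic subunit and the cytosolic isoform. Quantile scaling does alter such ratios. After it the log2 differences of IR from sham were -0.83 for Idh2, -0.305 for Idh3a and -0.56 for Idh3g, and the ratio tests were not run on those values.

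Idh3a/Idh3g was 0.392 ± 0.025 in IR and 0.282 ± 0.018 in sham, and Idh3a/Idh3b 0.387 ± 0.02 in IR and 0.284 ± 0.02 in sham (SD, n = 5 each). These are log2 differences of 0.48 and 0.45, so the catalytic subunit's RNA held up better than that of either regulatory subunit. Mdh2/Mdh1 was 0.97 ± 0.063 in IR and 0.674 ± 0.025 in sham, a log2 difference of 0.52, the larger fall being that of the cytosolic isoform. Suclg1/Suclg2 was 2.01 ± 0.16 in IR and 2.37 ± 0.088 in sham, a log2 difference of -0.24. For the beta subunits no difference passed the test, with Suclg2/Sucla2 at 1.35 ± 0.155 in IR and 1.35 ± 0.167 in sham (SD, n = 5 each; exact permutation p = 0.984). Leaving out any 1 library kept its log2 difference between -0.058 and 0.063. For Ogdh/Dlst, the ratio of the first to the second component of the complex, the log2 difference was -0.095, with an exact permutation p of 0.0397 and an adjusted p of 0.0794.

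**Figure D3:**
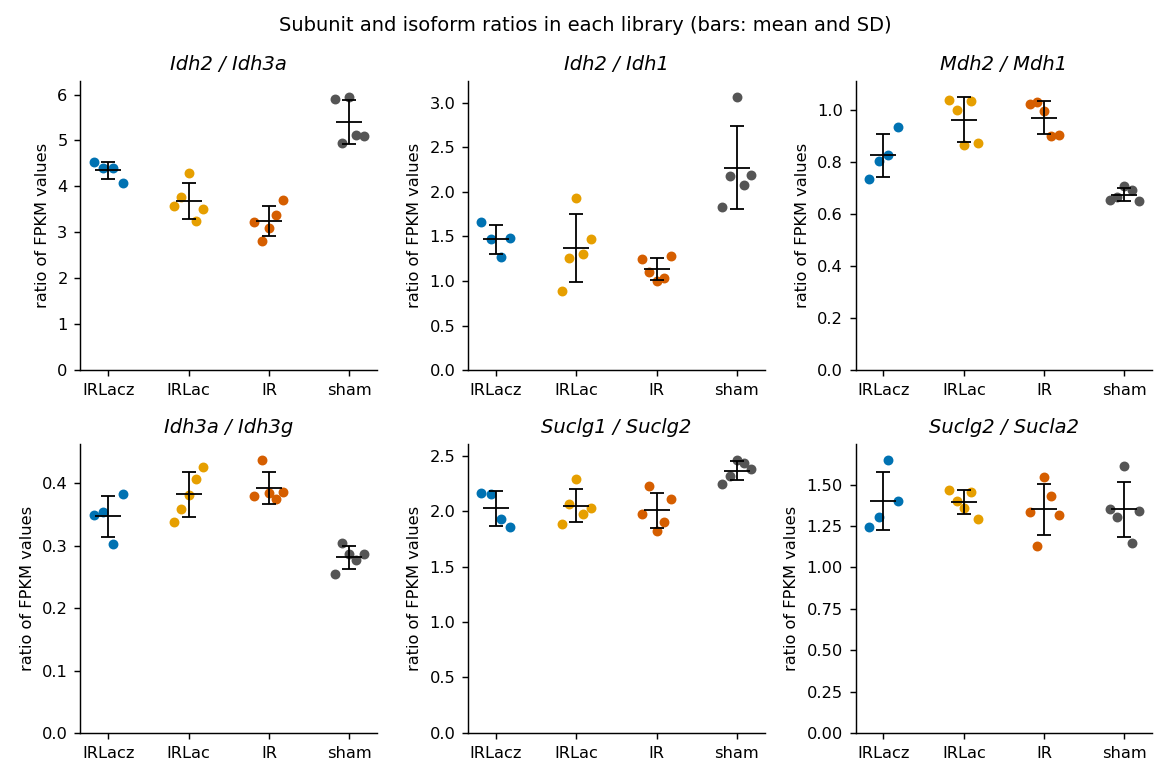
Ratio of FPKM values (vertical axes, from 0) for 6 gene pairs in every library, grouped from left to right as IRLacz, IRLac, IR and sham; dots are libraries and bars the mean and SD. IR and sham do not overlap for the first 5 pairs and overlap for Suclg2/Sucla2, and for Idh2/Idh3a the IRLacz dots (4.08 to 4.52) lie above the IR dots (2.81 to 3.70).

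Genes that feed or drain the cycle changed in both directions. Of 12 genes of anaplerosis and glutamate entry, 8 were called lower in IR and 4 higher. Pccb, a subunit of propionyl-CoA carboxylase, averaged 92.6 ± 8.92 FPKM in IR, against 179.2 ± 3.53 FPKM in sham (log2 difference -0.95, limma adjusted p = 3.1e-07). Me2, the mitochondrial NAD-dependent malic enzyme, averaged 4.93 ± 0.564 FPKM in IR, against 2.56 ± 0.211 FPKM in sham (log2 difference 0.73, limma adjusted p = 9.3e-08). The others called higher, named here after their values were seen, included Pck2 and Gpt2, and after median-ratio scaling 2 genes of the list were called higher, Me2 and Pck2. Among 9 tested mitochondrial carriers of cycle intermediates, 7 were called lower and 0 higher, led by Mpc1, a subunit of the pyruvate carrier (162.2 ± 16.3 FPKM in IR, against 379.4 ± 11.3 FPKM in sham), and Slc25a10, the dicarboxylate carrier (62.5 ± 9.83 FPKM in IR, against 145.4 ± 4.9 FPKM in sham; SD, n = 5 each).

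Mitochondrial genes outside metabolism were mixed. Of 18 genes for mitochondrial mass and transcription, 10 were called lower in IR and 4 higher, with a median log2 difference of -0.27, and after median-ratio scaling 15 were called lower and 1 higher. Lonp1, a matrix protease, averaged 59.8 ± 3.4 FPKM in IR, against 82.3 ± 2.81 FPKM in sham (log2 difference -0.455, limma adjusted p = 4.3e-06). Nrf1, a transcription factor of mitochondrial genes, averaged 9.90 ± 0.625 FPKM in IR, against 6.21 ± 0.547 FPKM in sham (log2 difference 0.60, limma adjusted p = 1.7e-06). The other genes called higher, again named after their values were seen, were Vdac3, Tomm22 and Tomm40, of which Vdac3 and Tomm40 had negative differences after median-ratio scaling. The difference between these genes and the 9 was not tested.

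Cell type markers changed in both directions, and it was the tubule lists that fell with the 9 genes. All 14 proximal tubule markers were called lower in IR than in sham, with a median log2 difference of -1.08, and 8 of 10 markers of the thick limb and distal tubule were. Of 10 collecting duct markers 6 were called lower. All 10 injured tubule markers, all 10 of macrophages and monocytes and all 10 of fibroblasts were called higher. Endothelial markers (5 higher and 4 lower of 10) and podocyte markers (3 and 3 of 8) were mixed. Over all 13594 tested entries, 7747 were called higher and 2529 lower. Lrp2, the proximal tubule receptor megalin, averaged 56.8 ± 9.9 FPKM in IR, against 141.1 ± 11.0 FPKM in sham (SD, n = 5 each). Cubn, the receptor cubilin that works with it, averaged 18.5 ± 2.99 FPKM in IR, against 40.1 ± 1.96 FPKM in sham. The summed level of the proximal tubule markers was 7295 to 15621 FPKM in IR, against 37354 to 42195 FPKM in sham, that of macrophages and monocytes 965 to 1367 FPKM in IR, against 72.4 to 93.6 FPKM in sham, and that of fibroblasts 832 to 1031 FPKM in IR, against 89.3 to 123.5 FPKM in sham. No marker of these lists was at 0 in all libraries of a group. Their part in the lower levels of the 9 genes was not tested.

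The comparisons of IRLacz and IRLac with IR asked whether gavage before the injury altered these levels. Both use the same 5 IR libraries, which also enter IR against sham. None of the 9 genes was called in either comparison. For IRLacz against IR, 13.3% of tested entries were called in either direction, 1809 in number, with 4171 at an unadjusted p under 0.05. The number called was 1127 without IRLacz replicate 1, 774 without IRLacz replicate 2, and 1089, 888 and 606 without IR replicates 1, 2 and 3, and it lay between 1583 and 2197 without any other 1 library of the pair of groups. In IRLac against IR, 0.00736% were called, a single entry by limma, with 786 entries at an unadjusted p under 0.05, but 116 entries without IR replicate 5. At unadjusted p-values, 4 of the 9 genes were under 0.05 in IRLacz against IR (Idh2 0.0084, Suclg2 0.014, Suclg1 0.038 and Cs 0.04 by limma), Fh1 was at 0.05, and 0 were under it in IRLac against IR. A p that misses the threshold does not show that the levels were equal.

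Idh2 came closest to a difference with Lactobacillus casei Zhang. Idh2 was at 323, 254, 202 and 207 FPKM in IRLacz, 165, 198, 291, 189.6 and 213 FPKM in IRLac, and 163, 168, 161, 193 and 215 FPKM in IR. IRLacz replicates 3 and 4 lay within the IR range and replicates 1 and 2 above it. In IRLacz it averaged 246.4 ± 56.1 FPKM (SD, n = 4) and in IR 179.8 ± 23.6 FPKM (n = 5), a log2 difference of 0.435 with an SE of 0.15 (limma adjusted p = 0.057). Without IRLacz replicate 1 the log2 difference was 0.30 (adjusted p = 0.19), and the call passed in 6 of 23 alternative settings, with a lowest adjusted p of 0.017. IRLac averaged 211.3 ± 48.0 FPKM (SD, n = 5), a log2 difference of 0.21 from IR (SE 0.14, limma adjusted p = 0.95), which was 0.09 without IRLac replicate 3.

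The succinyl-CoA ligase genes came next. Suclg2 was at 103, 85.0, 84.0 and 69.1 FPKM in IRLacz, 70.1, 74.9, 81.7, 67.4 and 73.5 FPKM in IRLac, and 64.2, 60.6, 71.6, 80.7 and 75.3 FPKM in IR. Suclg1 was at 223, 183, 162 and 129 FPKM in IRLacz, 132, 155, 187, 133 and 149 FPKM in IRLac, and 127, 135, 131, 154 and 159 FPKM in IR. For both, IRLacz replicate 4 lay inside the IR range or at its low end, and the other 3 IRLacz libraries were above all IR libraries. The log2 difference of IRLacz from IR was 0.27 for Suclg2 (SE 0.10, limma adjusted p = 0.077) and 0.28 for Suclg1 (SE 0.125, limma adjusted p = 0.14). In IRLac against IR it was 0.065 for Suclg2 and 0.095 for Suclg1, both with a limma adjusted p of 0.99. Without IRLacz replicate 1 the IRLacz differences were 0.17 for Suclg2 and 0.15 for Suclg1, and without IRLac replicate 3 the IRLac differences were 0.026 and 0.016. Without IRLacz replicate 4, 4 of the 9 genes passed in IRLacz against IR (Idh2, Idh3g, Suclg1 and Suclg2). In that setting 2197 of 13594 entries were called, against 1809 with all libraries. Without IRLacz replicate 1, 0 of the 9 genes passed.

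Ogdh was at 179.7, 142, 126 and 112 FPKM in IRLacz and at 119, 122, 156, 119 and 126 FPKM in IRLac. Fh1 was at 129, 106, 92.2 and 83.9 FPKM in IRLacz and at 80.6, 90.6, 109, 83.9 and 93.3 FPKM in IRLac. Idh3g was at 204, 163, 152 and 132 FPKM in IRLacz and at 137, 146, 178, 143 and 142 FPKM in IRLac. In each of these genes the IRLacz range took in most of the IR range and reached toward sham without meeting it. The log2 differences of IRLacz from IR were 0.23 for Ogdh, 0.22 for Fh1 and 0.19 for Idh3g, with limma adjusted p-values of 0.18, 0.16 and 0.19. Those of IRLac from IR were 0.12 for Ogdh, 0.07 for Fh1 and 0.07 for Idh3g, each with a limma adjusted p of 0.99. The IRLacz differences were 0.10 for Ogdh, 0.11 for Fh1 and 0.075 for Idh3g without IRLacz replicate 1, the highest library of its group. Among all 23 alternative settings they reached 0.328 for Ogdh, 0.314 for Fh1 and 0.282 for Idh3g. Their lowest limma adjusted p-values, 0.052, 0.05 and 0.044, came without IRLacz replicate 4, where only Idh3g of these 3 genes was called. Without IRLac replicate 3 those of IRLac were 0.045 for Ogdh, 0.003 for Fh1 and 0.01 for Idh3g.

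Cs was at 117, 103, 96.1 and 91.9 FPKM in IRLacz and at 87.7, 93.5, 108, 90.6 and 100.2 FPKM in IRLac. Mdh2 was at 400.5, 340.3, 283 and 267 FPKM in IRLacz and at 286, 294, 404, 320.2 and 312 FPKM in IRLac. Idh3a was at 71.43, 57.71, 45.92 and 50.71 FPKM in IRLacz and at 46.13, 52.55, 67.79, 58.26 and 60.72 FPKM in IRLac. IRLacz replicate 1 exceeded every sham library for Cs and Idh3a, whereas IRLacz replicates 3 and 4 were below every IR library for Mdh2. The log2 differences of IRLacz from IR were 0.16 for Cs (limma adjusted p = 0.14), 0.03 for Mdh2 (0.87) and 0.01 for Idh3a (0.97). Those for Mdh2 and Idh3a became -0.08 and -0.11 without IRLacz replicate 1, and that for Cs became 0.10. Among all 23 alternative settings the highest were 0.115 for Mdh2, 0.101 for Idh3a and 0.212 for Cs, and none of these genes was called. IRLac differed from IR by 0.08 for Cs, 0.04 for Mdh2 and 0.03 for Idh3a on the log2 scale, with limma adjusted p-values from 0.99 to 1. Without IRLac replicate 3 these differences were 0.038 for Cs, -0.042 for Mdh2 and -0.03 for Idh3a.

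**Figure D4:**
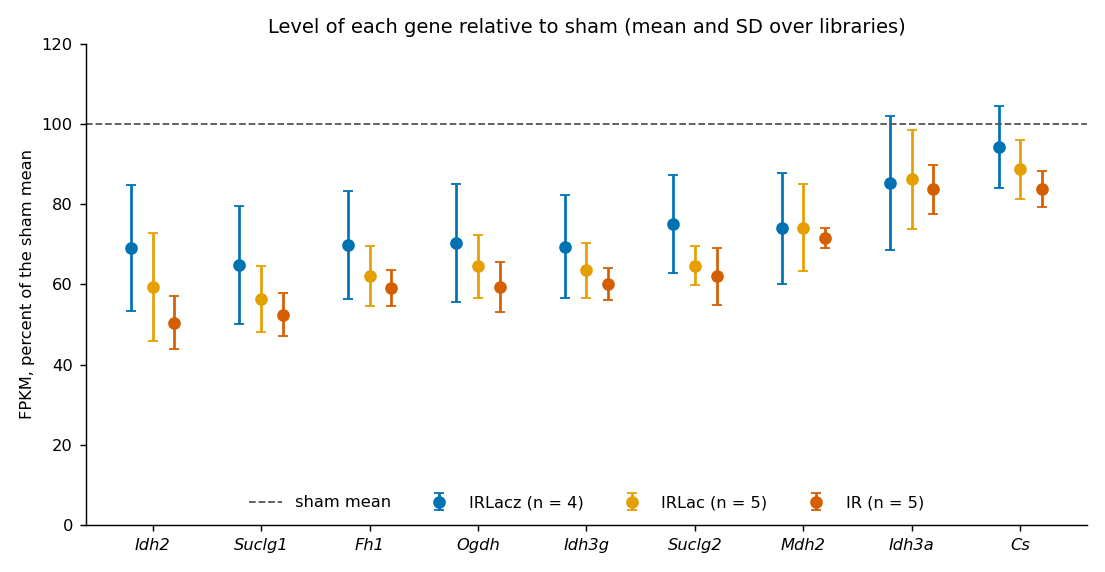
Mean FPKM as a percent of the sham mean (vertical axis, from 0), with the SD over libraries, for IRLacz, IRLac and IR from left to right within each gene; the dashed line is the sham mean. Genes are ordered by their level in IR, from Idh2 (50.4%) to Cs (83.8%), and the error bars of the 3 injured groups overlap for all 9 genes.

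None of the 9 genes was called in IRLacz against IRLac, at any unadjusted p under 0.05 either. Over all entries 0.0221% were called, 3 in number, with 2171 at an unadjusted p under 0.05. Without IRLac replicate 3 the number was 490, with library weights it was 167, and none of the 9 genes was called in either. The log2 differences of IRLacz from IRLac ran from -0.02 for Idh3a to 0.22 for Idh2. Suclg2 had the lowest limma adjusted p, 0.32, with a log2 difference of 0.20 (SE 0.10).

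Against sham, both gavaged groups kept lower levels of most of the 9 genes. In IRLacz against sham 7 of 9 were called lower, against 13.5% of all entries, and in IRLac against sham 8 of 9, against 16.8%. Cs (log2 difference -0.09, limma adjusted p = 0.3) and Idh3a (-0.24, 0.061) missed the threshold in IRLacz, and Idh3a (-0.22, 0.068) in IRLac. The Cs call in IRLac (limma adjusted p = 0.033) came with overlapping ranges and was lost in 7 of 24 alternative settings. With 1 library left out, 7 to 8 of the 9 genes were called in IRLacz and 7 to 9 in IRLac. Of 13594 entries, 1530 to 2001 were called lower in IRLacz in those settings and 2131 to 2384 in IRLac. Suclg1 had a log2 difference from sham of -0.65 in IRLacz and -0.835 in IRLac, with limma adjusted p-values of 0.00019 and 5.3e-06. For Idh2 it was -0.555 in IRLacz and -0.78 in IRLac, with 0.0028 and 6.7e-05. Without IRLacz replicate 1 and IRLac replicate 3, all 9 genes were called lower in both groups. Of 13594 entries, 2060 were then called lower in IRLacz and 2426 in IRLac.

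Among the ratios, 2 differed between IRLacz and IR. Idh2/Idh3a was 4.35 ± 0.189 in IRLacz (SD, n = 4) and 3.25 ± 0.333 in IR (n = 5), with no overlap, and 5.40 ± 0.48 in sham (n = 5). The log2 difference of IRLacz from IR was 0.43, with an exact permutation p of 0.0159 (adjusted p = 0.0476). Idh3a/Idh3b was 0.338 ± 0.029 in IRLacz (SD, n = 4) and 0.387 ± 0.02 in IR (n = 5), a log2 difference of -0.20 with the same exact permutation p and adjusted p. Its ranges overlapped, at 0.302 to 0.372 in IRLacz and 0.367 to 0.419 in IR. Each was called in 1 of the 9 settings that left out a library, in which the smallest possible p is larger. Without IR replicate 5 the exact permutation p was 0.0286 for Idh2/Idh3a and 0.0571 for Idh3a/Idh3b. Without IRLacz replicate 3 it was 0.0179 for Idh2/Idh3a and 0.0357 for Idh3a/Idh3b. In both settings Idh3a/Idh3b was thus above the smallest possible p. Across those settings Idh2/Idh3a kept log2 differences of 0.376 to 0.475, and Idh3a/Idh3b of -0.25 to -0.15.

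The remaining ratios missed the threshold. In IRLacz against IR, Idh2/Idh1 had a log2 difference of 0.375 and Idh3a/Idh3g of -0.18, each with an exact permutation p of 0.0238 and an adjusted p of 0.0571. Mdh2/Mdh1 was 0.825 ± 0.083 in IRLacz (SD, n = 4) and 0.97 ± 0.063 in IR (n = 5), a log2 difference of -0.24 (exact permutation p = 0.0397, adjusted p = 0.0794). In IRLac against IR 0 of 8 ratios were called, with the lowest adjusted p for Idh2/Idh3a, which was 3.68 ± 0.391 in IRLac and 3.25 ± 0.333 in IR (SD, n = 5 each; exact permutation p = 0.0952, adjusted p = 0.176).

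Other mitochondrial genes were mixed in IRLacz against IR. None of the 9 other mitochondrial subunits was called, and their median log2 difference of 0.21 stood beside the 0.22 of the 9 genes, against -0.004 over all entries. These medians were 0.085 for the other subunits, 0.10 for the 9 genes and 0.027 over all entries without IRLacz replicate 1. The 18 genes of mitochondrial mass and transcription had a median log2 difference of 0.03, and their difference from the 9 genes was not tested. Dhtkd1 was called higher, at 5.54 ± 1.29 FPKM in IRLacz and 3.34 ± 0.868 FPKM in IR (log2 difference 0.60, limma adjusted p = 0.032). Ppargc1a, a coactivator of mitochondrial genes, was called higher, at 10.5 ± 1.53 FPKM in IRLacz (SD, n = 4) and 5.87 ± 0.942 FPKM in IR (n = 5), with a log2 difference of 0.74 and a limma adjusted p of 0.0063. Tfam, the mitochondrial transcription factor, was also called higher (log2 difference 0.235, limma adjusted p = 0.039). Among carriers, Slc25a11 for oxoglutarate (log2 difference 0.40) and Slc25a12 for aspartate and glutamate (0.38) were called higher and Slc25a22 for glutamate (-0.34) lower, with limma adjusted p-values of 0.025, 0.029 and 0.045. After median-ratio scaling 0 carriers were higher and 1 lower. These 5 genes were named because their counts were small, after their values were seen. Without IRLacz replicate 1 no isoform and no carrier was called, and 1 of the 18 genes of mitochondrial mass and transcription was.

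The 9 genes varied together from library to library. Averaged over the 9 genes, levels were 93.0, 76.4, 67.2 and 62.1% of the sham mean in IRLacz, 60.7, 66.4, 82.9, 65.0 and 69.2% in IRLac, and 59.7, 63.6, 61.3, 68.8 and 70.3% in IR. The group means were 74.7 ± 13.6% in IRLacz (SD, n = 4), 68.8 ± 8.44% in IRLac (n = 5) and 64.7 ± 4.63% in IR (n = 5), against 97.2 to 103.4% in single sham libraries. IRLacz replicate 1 held the highest value of its group for 9 of 9 genes, and so did IRLac replicate 3. Over the 14 injured libraries the 36 pairs among the 9 genes had Pearson correlations of 0.434 (Idh3a with Suclg2) to 0.979 (Idh3g with Ogdh), with a median of 0.887. These points share libraries, so the correlations describe the libraries and carry no test.

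Tubule markers set the same pair of libraries apart. Slc34a1, the sodium-phosphate transporter of the proximal tubule, was at 1761, 1376, 1109 and 767 FPKM in IRLacz, at 1219, 977, 1519, 1022 and 852 FPKM in IRLac, and at 1011, 885, 1209, 1258 and 1408 FPKM in IR. Havcr1 was at 138, 305, 495 and 553 FPKM in IRLacz, at 546, 739, 211, 462 and 460.0 FPKM in IRLac, and at 542, 503, 517, 474 and 403 FPKM in IR. The libraries with the highest levels of the 9 genes, IRLacz replicate 1 and IRLac replicate 3, had the highest Slc34a1 and the lowest Havcr1 of all injured libraries. Slc34a1 was named after its values were seen.

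Sums over whole marker lists pointed to the same libraries. The macrophage and monocyte sum was 410 to 916 FPKM in IRLacz, 568 to 1361 FPKM in IRLac and 965 to 1367 FPKM in IR. The fibroblast sum was 391 to 628 FPKM in IRLacz, 585 to 1107 FPKM in IRLac and 832 to 1031 FPKM in IR. In each gavaged group its lowest sums were those of the library with the highest levels of the 9 genes. Set against IR, IRLacz had 5 of 10 macrophage and monocyte markers, 7 of 10 fibroblast markers and 2 of 10 injured tubule markers called lower and none of 14 proximal tubule markers called. It also had 9 of 10 cell cycle genes called lower (median log2 difference -0.74), and 5 of 10 collecting duct markers (median 0.62) and 1 of 10 markers of the thick limb and distal tubule called higher. Without IRLacz replicate 1 the counts of lower markers were 2 for macrophages and monocytes, 6 for fibroblasts, 0 for injured tubule and 5 for the cell cycle. Those of higher markers were then 2 for the collecting duct and 0 for the thick limb and distal tubule. The part of these markers in the levels of the 9 genes was not tested.

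**Figure D5:**
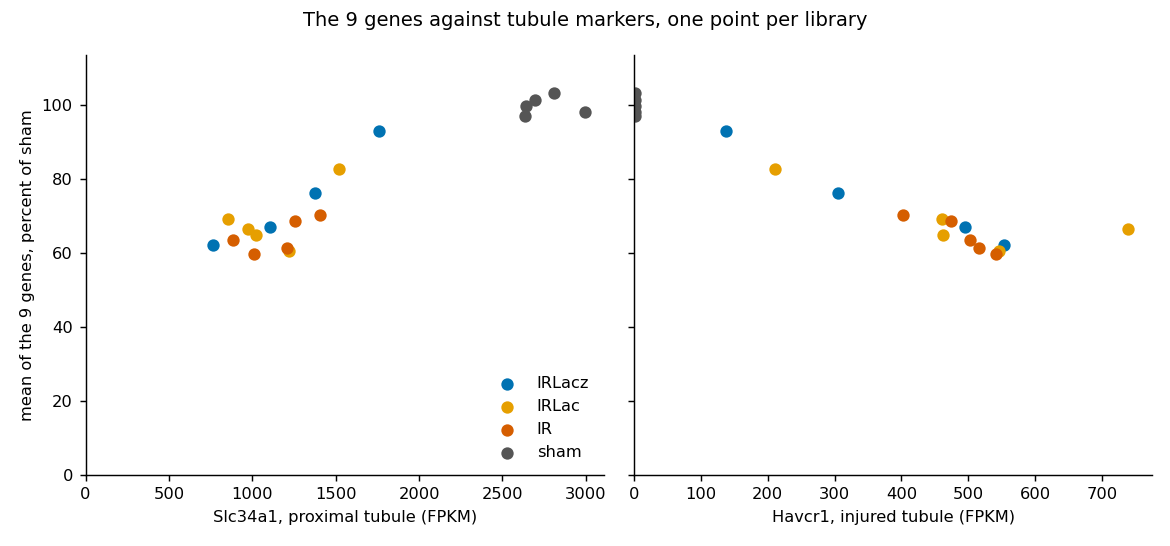
Mean level of the 9 genes as a percent of sham (vertical axis, from 0) against Slc34a1 (left) and Havcr1 (right) in FPKM, with 1 point per library and colours for IRLacz, IRLac, IR and sham. The injured libraries with the highest levels, at 93.0% and 82.9%, have the highest Slc34a1 and the lowest Havcr1 among injured kidneys.

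Genes of the ATP synthase were among the entries whose pattern was most like that of the 9 genes. Likeness was measured as the Pearson correlation, over the 19 libraries, with the mean of the 9 genes after each was scaled to mean 0 and SD 1 on the log2 scale. The 5 highest values outside the 9 genes included 0.9934 for Atp5a1 and 0.9913 for Atp5b, subunits of the ATP synthase, 0.9912 for Slc25a5, an ADP/ATP carrier, and 0.9911 for Mdh1. Over the 14 injured libraries alone Atp5a1, Atp5b, Slc25a5 and Mdh1 had correlations of 0.9874, 0.9774, 0.9833 and 0.9774. Atp5b, for example, averaged 1277 ± 296 FPKM in IRLacz (n = 4), 1156 ± 157 FPKM in IRLac, 1055 ± 118 FPKM in IR and 1899 ± 63.6 FPKM in sham (SD, n = 5 each).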

How the data were processed

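RNA of 19 mouse kidney samples was sequenced and groups were read from the sample titles. The authors deposited 1 table of FPKM values, fragments scaled by gene length and depth, with a column per library per the file headers. HISAT, StringTie 1.0.4 and build mm9 are listed, without roles, in the submitters' processing notes. The annotation, strand and the handling of reads shared between genes, which could affect genes with near copies, were not stated there. A RefSeq table named 18238 of 19287 entries.

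The test was limma's (version 3.58.1, run under R 4.3.3) on log2(FPKM + 1), the deposited values being put on the log2 scale here. It used a trend of variance on mean, 4 group means over all 19 libraries and 15 residual degrees of freedom. Only entries reaching 1 FPKM in 4 or more libraries entered, with Benjamini-Hochberg adjustment over all of them and a threshold of 0.05. Differences on this scale understate changes of low genes. Ratios of 2 genes used exact permutation tests on the absolute difference of mean log2 ratios, each taken as a difference in log2(FPKM + 1). The fit was first tested on simulated data with known differences. Read depth is unknown, so no counting interval is given. In 27 entries with a median above 5 FPKM some library was at 0, which can be a failed estimate. The closest libraries of a group correlated at 0.9929 and were not identical.

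Alternatives covered the pseudocount, filter, scaling, weights, variance model, replicate block and left-out libraries. Genes to name were the 9 genes, the other cycle genes, the 2 genes of each other list with the smallest adjusted p in IR against sham, and the 5 closest patterns; of the marker lists only some were described. The 9 genes, the lists and the ratios were chosen with earlier results of these data known. Tables of transcription factors were not used here. Values of some genes of the lists are not reported here, although the counts and medians include them.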

Additional observations from a re-analysis of the deposited data

Results flagged for a closer look

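IRLac replicate 3 stood apart from the other 4 IRLac libraries in 3 of the 9 genes. Idh3g was at 177.92 FPKM there and at 136.67 to 146.21 FPKM in the others. Ogdh was at 155.96 FPKM there and at 118.55 to 125.68 FPKM in the others. Mdh2 was at 404.36 FPKM there and at 286.22 to 320.24 FPKM in the others. Each gap to the next library took up more of the group's range than Dixon's 95% value allows. The 9 genes in 4 groups gave 36 such sets of values, chance gives such a gap in about 1 in 20, and the 3 come from 1 library in genes that move together, so they are not independent.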

How the results depend on the processing

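Depth is unknown and the groups are small, which limits what the IRLacz and IRLac comparisons with IR can show. In IR against sham, 8 or 9 of the 9 genes were called under every alternative run, including 8 to 9 with 1 library left out, and Idh3a was the gene that was lost. In IRLacz against IR the count of genes called was 0, but 1 after TPM scaling, 2 after quantile scaling, 3 with library weights and 0 to 4 with 1 library left out. Over all 13594 entries the 1809 called in IRLacz against IR were 1528 after TPM scaling, 2251 after quantile scaling and 2978 with library weights. They were 885 with only those 2 groups fitted and 606 to 2197 with 1 library left out. The counts of the 9 genes in IRLac against IR and IRLacz against IRLac were 0 under every alternative run. The 8 called ratios were 0 in the paired form, where the smallest possible p is 0.0625 or 0.125, and 6 to 10 with 1 library left out. Same-numbered libraries did not deviate together (median correlation -0.067, over 0.1 in 6 of 27 pairs). The labels do not state a pairing by number, and these correlations cannot exclude one. With the replicate block, 8 genes were called in IR against sham and 0 in IRLacz against IR.

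Small differences changed sign, and the cause was not tested. For IRLac against IR, Mdh2 became -0.005 with library weights, and without IRLacz replicate 1 and IRLac replicate 3, an alternative chosen after seeing the data, Idh3a became -0.03 and Mdh2 -0.042. For IRLacz against IR, Idh3a became -0.057 with library weights, and without those 2 libraries Idh3a became -0.108 and Mdh2 -0.079. For IRLacz against IRLac, Mdh2 became 0.017 after quantile scaling, 0.005 with library weights and 0.002 with the replicate block and median-ratio scaling, where Idh3a became 0.004. With 1 library left out, Idh3a ranged from -0.03 to 0.106 and Mdh2 from -0.042 to 0.082 in IRLac against IR. In IRLacz against IR the ranges were -0.108 to 0.101 for Idh3a and -0.079 to 0.115 for Mdh2. In IRLacz against IRLac they were -0.142 to 0.067 for Idh3a, -0.015 to 0.211 for Ogdh and -0.12 to 0.074 for Mdh2. Ratios near 0 did likewise. In IRLacz against IR, Suclg2/Sucla2 ranged from -0.028 to 0.104 and Suclg1/Suclg2 from -0.019 to 0.055. In IRLac against IR, Idh3a/Idh3g ranged from -0.081 to 0.002, Suclg2/Sucla2 from -0.01 to 0.101, Suclg1/Suclg2 from -0.011 to 0.067 and Mdh2/Mdh1 from -0.044 to 0.022. In IR against sham, Suclg2/Sucla2 ranged from -0.058 to 0.063.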
